A study of Xenopus tropicalis with 5 samples.

Results

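The sites described here are weakly methylated cytosines in abundant mRNAs of the Xenopus tropicalis egg. They were taken from the list of 5-methylcytosine (m5C) sites made from 100 ng of RNA, as those with 2000 reads or more and a methylation level below 30% that lie in genes with fewer than 10 listed sites. This rule gave 737 of 18524 sites (3.98%), in 486 of 6458 genes (7.53%). All RNA came from wild-type X. tropicalis embryos at stage 0, with many embryos pooled in each RNA isolation. Polyadenylated RNA was profiled by RNA bisulfite sequencing (RNA BS-seq). By their labels, 2 libraries were made from 100 ng and 1 library each from 5 ng, 10 ng and 20 ng, and the input is the label that differs between the groups. At which step this amount was weighed is not labelled, and the protocol given for every library describes larger amounts than the lower inputs. The 2 libraries of 100 ng were deposited as 1 list, so that no spread between replicates was available for any value below. Every interval is a 95% interval. Those of levels cover the counting error of reads only, since reads carry no molecular identifiers here. Those of shares and medians count sites, and sites of a gene are not independent.

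Bisulfite turns unmethylated cytosine into uracil, which is read as T, whereas m5C resists and is read as C. The m5C level of a site is its share of unconverted reads. In animal mRNAs m5C is placed by the methyltransferases NSUN2, whose sites are followed by G-rich sequence, and NSUN6, whose sites lie in the motif CTCCA with the first C methylated. At this stage the embryo does not yet transcribe its own genome, so its mRNAs were made and stored during the growth of the oocyte. They carry the stock of cyclins, replication factors, spindle proteins and translation regulators for the first cleavages. Listed genes included the meiotic kinase mos, the oocyte factor zar1l and the maternal transcription factor pou5f3.3, whose mRNAs are known to be stored in the egg.

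The bases that follow the sites are shown first, because they are a property of the cytosines that the rule did not use. A supplementary table of the study gives the 4 bases 3′ of the site for sites called in both X. tropicalis and Xenopus laevis, and it held 54 of the 737 sites. The capital C is the methylated cytosine, and the lower-case letters are the bases that follow it in the RNA, written with t for u. The first 3 lines are the sites of highest coverage with other letters than the CTCNA motif (positions 50292308, 134388758 and 1666461 in this order). The next 7 are all the sites found in the motif, and the last 3 are the other sites of the 3 genes that had a site of both kinds.
srsf1: Cgaga
LOC100491633: Cagaa
ncapd2: Cgagg
hmgn2: Ctcca
cdc20: Ctcca
MGC89853: Ctcca
hnrnpc: Ctcca
slc16a3: Ctcca
spsb1: Ctcca
hdac8: Ctcca
MGC89853, other site: Caagg
hnrnpc, other site: Cagag
spsb1, other site: Cgtgg
The motif CTCNA, read in the direction of the RNA only, followed the methylated C at 7 of 54 sites (13.0%), against 249 of all 1223 sites of the table (20.4%) and 11 of the 57 sites that had 2000 or more reads but a level from 30% upwards (19.3%). Sites outside the motif with 2 or more G among the 4 bases were 39 of all 54 (72.2%), against 749 of 1223 (61.2%) in the whole table and 41 of 57 (71.9%) among the deeply covered stronger sites. A G directly followed the site in 25 of 54 (46.3%), against 349 of 1223 (28.5%) in the whole table and 24 of 57 (42.1%) among the deeply covered stronger sites. No test was made on these shares. The table is restricted to sites shared by 2 frogs, and the other sites were not searched for sequence.

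Sites in the motif had a median level of 20.8% at 100 ng (n = 7, range 10.6 to 28.9%), and the 39 G-rich sites had a median of 13.5% (range 10.2 to 27.6%). The same sites, measured again at the lower inputs, had medians of 22.6% against 14.8% at 5 ng, 20.8% against 14.7% at 10 ng and 19.5% against 14.1% at 20 ng, over the sites listed there. As these are the sites chosen at 100 ng, the repeated order is no separate evidence. The motif site of lowest level, in spsb1, was not listed at 5 ng, so it is missing from the median there. The ranges of the 2 kinds of site overlapped almost fully. The 8 sites of neither kind had a median of 16.3% at 100 ng. Over all 1223 sites of the table, sites in the motif had a median of 31.06% at 100 ng and G-rich sites 30.02%. At 5, 10 and 20 ng the order over all sites was reversed, with 28.9% against 32.9%, 31.8% against 33.9% and 31.4% against 32.1%. The order among the described sites thus did not hold over the whole table at the lower inputs, and it was not tested. Within hnrnpc, which encodes a protein that packages nascent transcripts, the site in the motif (chromosome 1, position 131102903, plus strand) had 20.8% at 100 ng and 17.9%, 20.8% and 19.5% at 5, 10 and 20 ng. The other hnrnpc site (position 131103603) had 10.3% at 100 ng and 10.4%, 11.2% and 11.4% at the lower inputs, below the first site in every list. Within MGC89853 (chromosome 4, plus strand), the site in the motif (position 35402382) had 25.7% at 100 ng and 24.6%, 24.6% and 22.0% at 5, 10 and 20 ng, and the other site (position 35400649) had 11.4%, with 10.4%, 13.0% and 12.1%. Within spsb1, an adaptor of a ubiquitin ligase, the order was the reverse, with 17.3% at the G-rich site (chromosome 7, position 80843737, plus strand) and 10.6% at the site in the motif (position 80847288). The spsb1 site in the motif was listed at 11.3% at 10 ng and 12.5% at 20 ng and not listed at 5 ng, while the G-rich site had 16.1%, 18.0% and 17.1% at 5, 10 and 20 ng.

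The 737 sites made up 60.7% of the 1214 sites with at least 2000 reads at 100 ng. Of all 18524 listed sites, a further 10206 with fewer reads met the same limits of level and sites per gene. Such sites were thus also common at lower coverage, and the share at this depth was not tested. Sites of this depth with 30% or more in genes with fewer than 10 sites numbered 331 in 263 genes, and a further 104 weak sites of this depth lay in 38 genes with 10 or more sites. The coverage of the 737 sites ran from 2000 to 44702 reads with a median of 3574 (quartiles 2545 and 5718). They held 34.4% of all reads at listed sites. Their level ran from 10.0% to 29.98%, the former being the lowest level that any list contains, with a median of 15.5% (quartiles 12.3% and 20.2%). The levels were crowded at the lower end, with 164 sites below 12%, 183 between 12% and 15% and 390 at 15% or more. The number of unconverted reads behind a level ran from 208 to 13393 with a median of 600. The sites were chosen by these values of coverage and level, which are given as a description. Coverage is the nearest measure of mRNA abundance in the files, and in RNA pooled from many embryos, more copies of an mRNA per embryo and more embryos with it cannot be told apart.

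**Figure D1:**
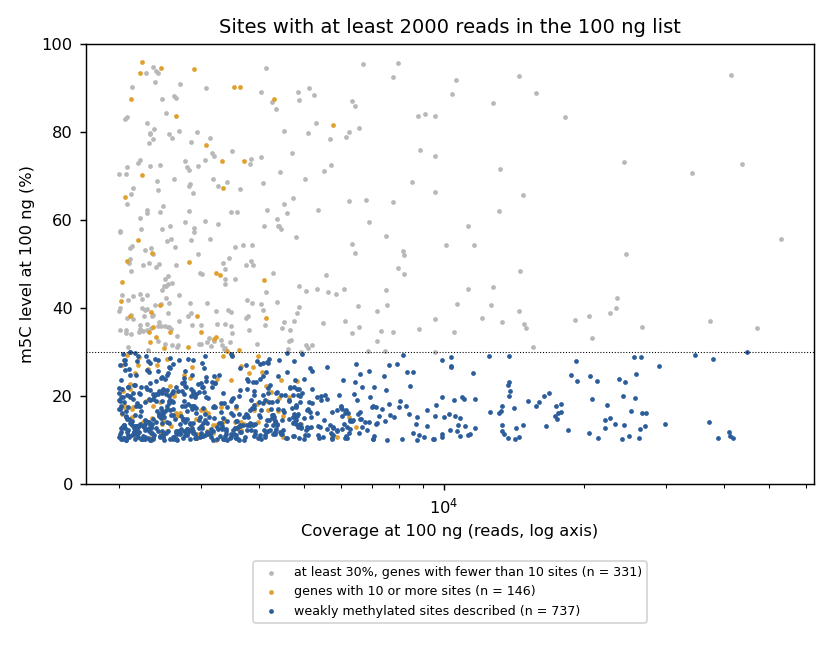
Level of m5C (%, vertical axis) against coverage (reads, logarithmic horizontal axis) for the 1214 sites with at least 2000 reads at 100 ng. Blue points are the 737 weakly methylated sites described here, grey points the 331 sites of at least 30% in genes with fewer than 10 sites, orange points the sites in genes with 10 or more sites, and the dotted line marks 30%. The blue points are densest between 10% and 15% and reach 44702 reads.

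At the limits of the rule, neighbouring sites were close in value. Just below 30% were sites in plod3 and colgalt1, which modify collagen (29.98% and 29.96%), and in glul-like.2 (29.96%), named as a glutamine synthetase-like gene. Just above it were smox (30.07%), mvp (30.10%) and a histone H3.3 gene, h3f3b (30.17%). At the coverage limit, the kinetochore gene cenpt (2000 reads), gpat4 (2001) and LOC101734598 (2005) were inside, and hnrnpd (1996), tnrc6a (1991) and art5 (1984) outside. At the limit on sites per gene, LOC100491633 with 9 listed sites was inside, and the sites of espl1 (4930 reads, 13.7%) and ext1 (4636 reads, 19.9%, and 4182 reads, 17.0%), with 10 sites each, were outside.

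Coordinates are those of the authors' files on the Xenbase X. tropicalis v9.1 assembly, and whether positions count from 0 or 1 is not stated in the sources used here. On chromosomes 1 to 10 lay 588 sites, and 149 lay on unplaced scaffolds. No gene models of this assembly were used here, so exon, intron or untranslated region is not given for any site.

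The site with the most reads lay in glul-like.2 (scaffold_312, position 174779, minus strand). It had 44702 reads and a level of 29.96% at 100 ng (interval 29.5 to 30.4%), 30.5% at 5 ng and 30.1% at 20 ng, and at 10 ng 2522 of 8408 reads were unconverted. Its level thus stayed at the limit of the rule in every list. The name marks a family of related genes that can share reads, so the level is uncertain. The next was in ube2c (chromosome 10, position 16576223, minus strand), the ubiquitin-conjugating enzyme of the anaphase-promoting complex, with 41911 reads and 10.5% (10.2 to 10.8%) at 100 ng. At 5, 10 and 20 ng the ube2c site had 10.8%, 10.1% and 10.0%, just above the lowest level listed. It was the only listed site of ube2c, as the odc1 site was of odc1.

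Adjacent cytosines in srsf1, an SR splicing factor, followed in coverage (chromosome 2, positions 50292307 and 50292308, plus strand). The first had 41108 reads and 11.0% (10.7 to 11.3%) at 100 ng, with 11.2%, 10.9% and 10.5% at 5, 10 and 20 ng. The second, followed by gaga as shown above, had 41089 reads and 11.9% (11.6 to 12.2%), with 11.4%, 11.97% and 12.5%. The second was above the first in all 4 lists, by 0.90 points at 100 ng.

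In odc1, the rate-limiting enzyme of polyamine synthesis (chromosome 5, position 134400326, minus strand), 37870 reads gave 28.6% (28.1 to 29.0%) at 100 ng. The odc1 level was 28.0%, 28.3% and 29.0% at 5, 10 and 20 ng. In incenp, the scaffold of the chromosomal passenger complex that carries Aurora B (chromosome 4, position 13637717, plus strand), 34683 reads gave 29.3% (28.8 to 29.8%), with 30.3%, 29.6% and 28.6% at the lower inputs. These sites stood near the upper limit, and incenp crossed 30% at 5 ng only. In ncapd2, a subunit of condensin, the site at position 1674324 (chromosome 7, plus strand) had 37046 reads and 14.0% (13.7 to 14.4%), with 14.6%, 14.0% and 13.8%. LOC100170427 (chromosome 2, position 144104098, plus strand) had 29924 reads and 13.6% (13.2 to 14.0%), with 14.1%, 13.6% and 13.2%.

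**Figure D2:**
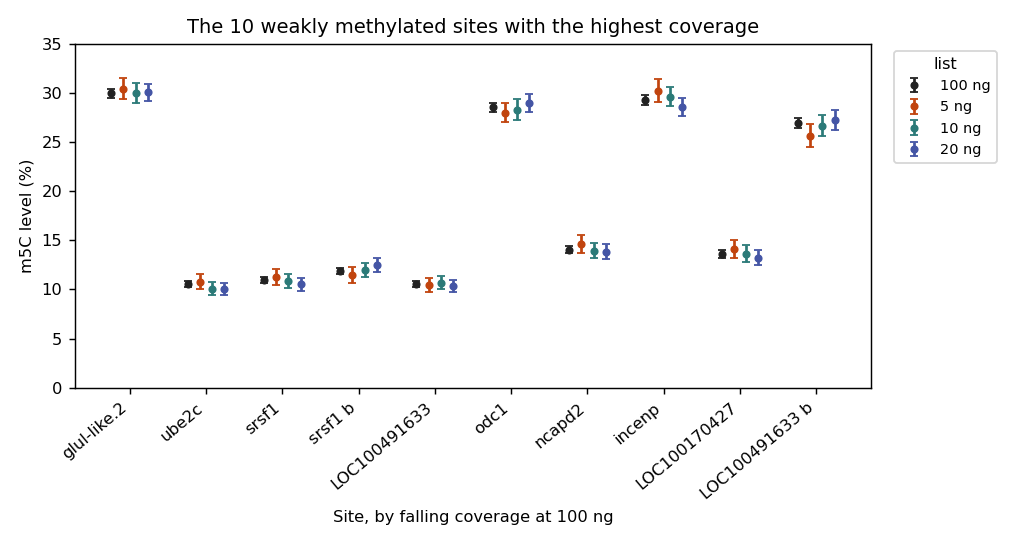
Level of m5C (%) in the 4 lists at the 10 weakly methylated sites with the highest coverage at 100 ng, ordered by falling coverage from left to right, with exact 95% intervals as bars. The letter b marks the site of a gene that comes after its first one (srsf1 position 50292308 and LOC100491633 position 134388231). Each site keeps its place near 10 to 15% or near 25 to 30% in all 4 lists.

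The lists from 5, 10 and 20 ng took no part in choosing the sites, and show how often a weak site was found again. Of the 737 sites, 670 were listed at 5 ng (90.9%, interval 88.6 to 92.9%). The 10 ng list held 681 (92.4%, 90.2 to 94.2%) and the 20 ng list 682 (92.5%, 90.4 to 94.3%). In all 3 lists were 621 sites (84.3%, 81.4 to 86.8%), in 2 lists 70, in 1 list 30 and in none 16. Over all 18524 sites of the 100 ng list, 60.2%, 56.9% and 61.3% were listed at 5, 10 and 20 ng. A list holds only sites of 20 or more reads and 10% or more m5C that passed the authors' other filters, so a site that is not listed has no known level. Which filter left a given site out was not tested.

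Recurrence followed the level at 100 ng. Of the 390 sites with at least 15%, all were listed at 5, 10 and 20 ng (100%, 99.1 to 100%). Between 12% and 15%, 176, 177 and 176 of 183 sites were listed (96.2%, 96.7% and 96.2%), and 165 (90.2%) were in all 3 lists. Below 12%, 104, 114 and 116 of 164 sites were listed at 5, 10 and 20 ng (63.4%, interval 55.5 to 70.8%, then 69.5%, 61.9 to 76.5%, and 70.7%, 63.1 to 77.6%), and 66 (40.2%) were in all 3. Every list leaves out levels under 10%, and the lowest class lies next to that limit, so the classes could not be listed again on equal terms. The intervals count sites, and no test between classes was made. The highest level at 100 ng of a site missing from a list was 14.8%, in kmt5c, a histone H4 methyltransferase gene, and all 16 sites missing from every list were below 12%.

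**Figure D3:**
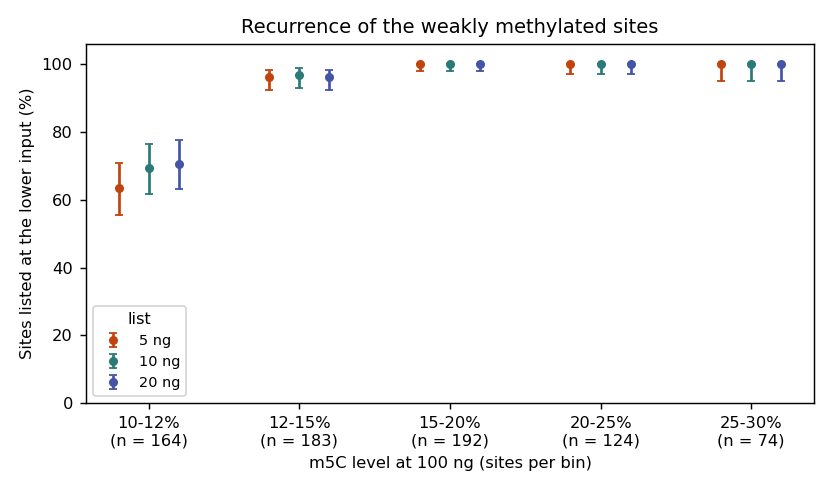
Share of the weakly methylated sites (%, vertical axis) listed at 5 ng, 10 ng and 20 ng, by m5C level at 100 ng (horizontal axis, number of sites under each class), with exact 95% intervals as bars. Every site of 15% or more was listed at each lower input, against 63.4 to 70.7% of sites between 10% and 12%.

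Sites of other kinds had the same pattern at this depth. All 331 sites of at least 30% in genes with fewer than 10 sites were in all 3 lists (98.9 to 100%). In the genes with 10 or more sites, all 62 weak sites of at least 15% were in all 3 lists, and 33, 37 and 38 of 42 weaker ones were listed at 5, 10 and 20 ng (78.6%, 88.1% and 90.5%, against 80.7%, 83.9% and 84.1% of the 347 described sites below 15%). Among shallower weak sites of at least 15% in genes with fewer than 10 sites, 435, 435 and 438 of 438 were listed where the coverage was 1000 to 2000 reads, and 77.6%, 73.0% and 80.9% of 2484 where it was 100 to 500 reads. The shares of the 737 sites lay close to those of sites of like level and depth, and no test of these shares was made.

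The sites of highest coverage that no lower input listed were in khsrp, eif4g2, mos, rcc2 and nelfb. The khsrp site (chromosome 3, position 130048712, minus strand), in a gene for a protein that promotes decay of AU-rich mRNAs, had 14507 reads and 10.8% (10.3 to 11.3%) at 100 ng. The eif4g2 site (scaffold_203, position 172670, plus strand), in a translation initiation factor gene, had 13755 reads and 10.4%. The mos site (chromosome 6, position 100858973, minus strand) had 7561 reads and 10.1%, and the gene encodes the kinase that holds the egg in meiosis until fertilisation. The rcc2 site had 7062 reads and 11.0%, and the nelfb site, in a gene for a subunit of the complex that pauses RNA polymerase, 5775 reads and 11.2%. Other sites of khsrp and eif4g2 were listed at every lower input, while the coverage of the missing sites there is not known.

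Among the sites of lowest level were those in cd9, gpx3, mos, efr3a, dlst, kif5b, pcm1, fam60a and LOC105945276, all between 10.0% and 10.1% at 100 ng. Of these, gpx3 (a secreted glutathione peroxidase) was listed at 12.2%, 10.3% and 11.1% at 5, 10 and 20 ng, and none of the others named was in every list. Where these sites were listed at a lower input, their levels ran from 10.0% in dlst at 20 ng to 12.2% in gpx3 at 5 ng, and a level below 10% could not appear.

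Where the sites were listed, the level at the lower inputs was close to that at 100 ng. The median level was 15.9% at 5 ng (n = 670), 15.8% at 10 ng (n = 681) and 16.2% at 20 ng (n = 682). The median difference from 100 ng was -0.284 points at 5 ng, while it was -0.128 at 10 ng and -0.0692 at 20 ng. Lists leave out levels under 10%, so sites near that level could be seen only where they came out at 10% or more. Below 12% the median difference of the listed sites was 0.311, 0.335 and 0.342 points above 100 ng at 5, 10 and 20 ng. Of these listed sites, 38 of 104, 38 of 114 and 41 of 116 were lower than at 100 ng. The 390 sites of at least 15%, which were all listed, are free of the 10% limit. Their median differences were -0.445 (n = 390), -0.239 and -0.301 points at 5, 10 and 20 ng. The 100 ng level chose the sites, so no test against it was made.

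Of the 390 sites of at least 15%, 73.3%, 71.8% and 73.3% were within 2 points of their 100 ng level at 5, 10 and 20 ng, and 98.7%, 99.2% and 99.7% within 5 points. The order of the sites was kept to the same degree in each list, with Pearson's r of 0.907, 0.914 and 0.916 and Spearman's rho of 0.898, 0.900 and 0.897 across the 390 sites at 5, 10 and 20 ng. These describe sites and not samples, and sites of a gene share reads and base composition. Few left their class, with 34, 39 and 29 sites below 15% and 13, 8 and 9 at 30% or more at 5, 10 and 20 ng.

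**Figure D4:**
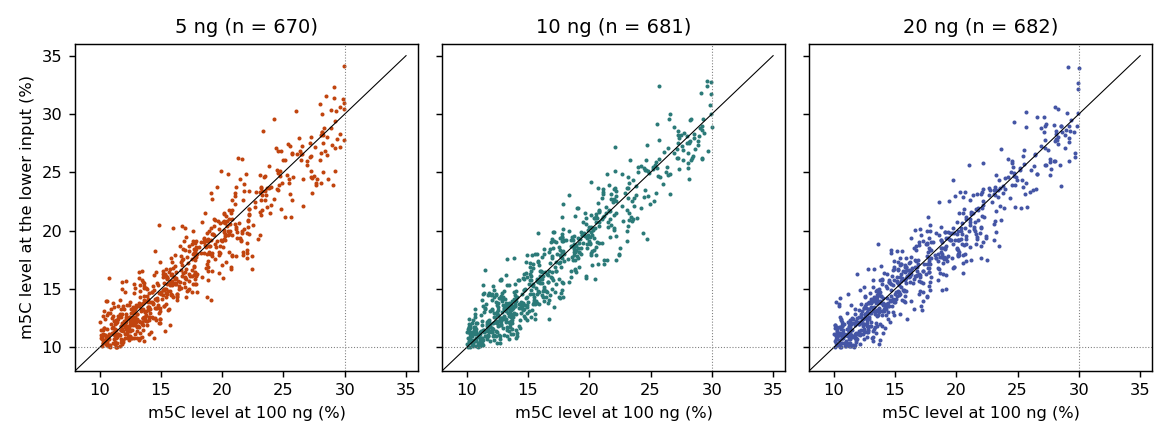
Level of m5C at each lower input (%, vertical axis) against the level at 100 ng (%, horizontal axis) for the weakly methylated sites listed at 5 ng (n = 670), 10 ng (n = 681) and 20 ng (n = 682). The solid line marks equal levels, the dotted lines mark 10% on the vertical and 30% on the horizontal axis, and the points follow the solid line, with differences between -5.72 and 6.73 points.

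The lower inputs were then compared with each other, taking sites covered by 50 or more reads in both lists. Converted and unconverted reads at each were compared by Fisher's exact test (two-sided), and p-values were adjusted over all sites of a pair by the Benjamini-Hochberg method. With 1 library per lower input the test compares libraries and not inputs. Between 5 and 10 ng 0 of 639 described sites passed an adjusted p of 0.05, against 1 of 6835 sites tested (0.0146%). Between 5 and 20 ng 0 of 645 passed, against 2 of 7179 (0.0279%), and between 10 and 20 ng 0 of 649, against 3 of 6986 (0.0429%). By the same Fisher's test with no adjustment, 56 (8.76%), 43 (6.67%) and 39 (6.01%) of the described sites had p under 0.05, against 7.21%, 6.66% and 6.54% of all sites. The share was near the background in each pair. At the sites of at least 15%, the mean squared difference between 2 lists was 1.42, 1.40 and 1.195 times that of read counting alone.

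The smallest p of a described site was at clk2, a kinase of SR proteins (chromosome 8, position 117562021, minus strand). The clk2 level was 28.5% at 100 ng and 31.5%, 26.4% and 23.8% at 5, 10 and 20 ng, on 951, 636 and 849 reads, and 5 and 20 ng gave an unadjusted p of 0.000277 and an adjusted p of 0.249 by Fisher's exact test. The widest range over the lower inputs was at rpl13, a ribosomal protein gene, with 20.5%, 12.3% and 16.9% on 302, 284 and 385 reads. Next in range after rpl13 and clk2 came tsc22d1 (22.7%, 19.3% and 15.03%), ptk2 (29.6%, 21.9% and 26.1%), the focal adhesion kinase gene, and dvl2 (27.1%, 19.8% and 22.8%), a Wnt pathway adaptor. All these sites had fewer than 1000 reads in each lower list and none passed the adjusted test. The narrowest ranges were at cldn7, a tight junction claudin (19.1%, 19.1% and 19.0%), aurkb, the Aurora B kinase (position 131766373, 11.97%, 12.1% and 12.04%), orc1, the large subunit of the origin recognition complex (11.0%, 11.0% and 11.1%), glul-like.2 (position 175894, 16.0%, 16.1% and 16.1%) and cdc20 (position 75091569, 17.5%, 17.7% and 17.6%). Over the 621 sites in all 3 lists the range had a median of 2.15 points (0.1004 to 8.21).

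Coverage of the sites at the lower inputs was a median of 0.196 (5 ng), 0.205 (10 ng) and 0.241 (20 ng) times that at 100 ng. The summed coverage of the lower lists was a median of 0.645 times that at 100 ng over the 621 sites in all 3. The lowest ratios were at plk1, the Polo-like kinase of mitotic entry (position 15429140, 0.413), and at both dvl2 sites (0.421 and 0.453). The highest were at atad5, a PCNA unloader (1.36), ddx3x, an RNA helicase (position 69935421, 1.28), and hells, a chromatin remodeller (position 31009422, 1.26). At the atad5 site 2097 reads at 100 ng stood beside 1102, 785 and 965 at 5, 10 and 20 ng, and its level was 17.5% at 100 ng and 16.6%, 17.2% and 16.3% there.

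Of the 486 genes, 324 had 1 of these sites, 105 had 2 and 57 had 3 or more. In 87 genes the weak site was the gene's only listed site, and in 125 genes every listed site was one of the 737. In contrast, 272 genes also had a site of at least 30%, 164 of them one of at least 50%, and 156 had a stronger site with at least 2000 reads. The like share over all genes was not determined, so these counts are a description only. These genes held 931 other listed sites, of which 726 had fewer than 2000 reads and 451 had a level of at least 30%.

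LOC100491633, on the minus strand of chromosome 6, had 7 of its 9 listed sites among the 737, between positions 134385251 and 134391969. Their levels at 100 ng ran from 10.6% to 26.9%, and its other sites had 34.6% and 37.4%. The site at position 134388758, followed by agaa as shown above, had 10.6% at 100 ng on 38771 reads and 10.4%, 10.7% and 10.4% at 5, 10 and 20 ng. The site at position 134388231 had 26.9% on 28950 reads and 25.7%, 26.7% and 27.2%. The levels of these 2 sites did not overlap in any list.

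In cep295, a centriole gene on chromosome 2, 6 of 9 sites were weak (11.8 to 20.4%), while another site of the gene reached 91.0%. In khsrp 5 of 7 sites were weak, at 10.8%, 14.7%, 16.1%, 19.5% and 25.2%, and the others had 52.5% and 53.0%. The 4 khsrp sites found at every lower input had the same order of levels in each list. In csnk2a1, the catalytic subunit of casein kinase 2 (scaffold_1584, plus strand), all 5 listed sites were weak. They fell into higher sites at positions 2844, 4937 and 4970 (28.2%, 24.0% and 27.6%) and lower ones at positions 2817 and 2848 (12.6% and 11.3%). At the lower inputs the higher csnk2a1 sites ran from 22.2% to 28.5% and the lower ones from 11.9% to 14.6%, with position 2848 not listed at 5 ng, so these did not overlap. In orc1 5 of 8 sites were weak (10.5 to 22.1%), and another reached 60.3%.

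Weak sites of a gene at most 5 nt apart often had unlike levels at nearly equal coverage. In 8 pairs of sites at most 5 nt apart on the genome the median difference was 10.1 points, with a median coverage ratio of 1.01. Pairs 6 to 30 nt apart had a median difference of 3.92 points (17 pairs), pairs 31 to 500 nt apart 3.86 points (68 pairs) and pairs over 500 nt apart 4.96 points (158 pairs). With 8 pairs in the closest class this is a description. The pairs named next were chosen after their values were seen. In csnk2a1, positions 2844 and 2848 had 28.2% and 11.3% on 4424 and 4303 reads. In pfdn5, a prefoldin subunit (chromosome 2, minus strand), the adjacent positions 144289164 and 144289165 had 16.0% and 28.1% at 100 ng. At 5, 10 and 20 ng the pfdn5 pair had 20.2% and 26.7%, 16.6% and 26.7%, and 16.6% and 25.9%, the same order in each. In rogdi (chromosome 9, minus strand) adjacent positions 8647443 and 8647444 had 25.6% and 14.1% at 100 ng, and 27.2% and 12.6%, 25.4% and 12.9%, and 26.9% and 11.3% at 5, 10 and 20 ng. In cd9 and snrnp70, sites 7 and 14 nt apart had 10.0% and 29.1%, and 10.8% and 28.9%. The adjacent srsf1 sites differed by under 1 point at 100 ng. Sites 10 nt apart in aurkb, saal1 and csnk1g1 differed by 0.197, 1.47 and 2.26 points.

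The genes were set beside 13 lists of genes written for stages and functions of the egg, which were drawn up with earlier results of these data known. Over all symbols of the 100 ng list, 486 of 6394 (7.60%) had one of the weak sites, and 631 had any site of at least 2000 reads. The share of a list depends on how many of its mRNAs reached 2000 reads, which the rule requires, and no test was made on the lists. Levels given with the lists are those of single weak sites and not of whole mRNAs. Of the 486 genes, 156 also had a stronger site of at least 2000 reads. Examples at 100 ng are incenp (74.3%), ccnb1 (86.5%), dnmt1 (73.2%), zar1l (91.8% and 71.5%) and pou5f3.3 (80.0% and 62.0%).

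Of the mitotic kinase, kinetochore and spindle genes with a listed site, 18 of 40 (45.0%) had weak sites, 33 in number, with a median level of 14.0%. Of these, 29 were in all 3 lower lists. They included ncapd2 (position 1674324, above, and position 1670058 with 18.0%, and 18.0%, 19.2% and 17.7% at 5, 10 and 20 ng), incenp, and tpx2, a spindle assembly factor (scaffold_4312, position 2182, 23.2% at 100 ng and 23.6%, 22.8% and 23.5%). The tpx2 levels differed by less than 1 point across the 4 lists. In cyclins, cyclin-dependent kinases and the anaphase-promoting complex, 11 of 32 genes (34.4%) had 14 weak sites, 11 of them in all lower lists. Cyclin B1, the partner of Cdk1 in mitosis, is encoded by ccnb1 (chromosome 1, position 173655549, minus strand, 16.6% on 25221 reads) and ccnb1.2 (chromosome 4, position 83541532, plus strand, 16.2% on 27158 reads). These genes are close copies that could share reads, so their separate levels are uncertain. At 5, 10 and 20 ng ccnb1 had 15.1%, 15.6% and 16.1%, and ccnb1.2 15.8%, 16.4% and 17.3%. In cdc20, the activator of the anaphase-promoting complex (chromosome 4, minus strand), the site in the motif CTCCA at position 75091569 had 17.8% and the site at position 75091459 had 17.9%. The latter stood at 15.4%, 15.5% and 18.4% at 5, 10 and 20 ng, with an adjusted p of 0.292 between 5 and 20 ng by Fisher's exact test.

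DNA replication and licensing genes had weak sites in 10 of 39 (25.6%), 19 sites in all. Of the 3 weak sites of dnmt1, the maintenance DNA methyltransferase (chromosome 3, minus strand), those of highest coverage had 20.1% at position 126597807 and 15.04% at position 126587536 at 100 ng. At 5, 10 and 20 ng the former had 19.3%, 21.4% and 19.2% and the latter 14.6%, 15.4% and 14.7%, with no overlap. The other (position 126584002, 9470 reads, 10.3%) was listed at 10 ng only, at 11.2%. Of the 3 weak sites of mcm7, a subunit of the replicative helicase (scaffold_48, minus strand), those at positions 108522 and 112191 had 23.5% and 24.6% at 100 ng and between 23.4% and 25.5% at the lower inputs. The other (position 104112, 7045 reads, 10.3%) was also listed at 10 ng only, at 10.6%. Histones and histone chaperones had weak sites in 6 of 13 genes (46.2%). In npm1, the chaperone nucleophosmin (chromosome 3, plus strand), position 9672393 had 26.6% and position 9673060 14.96% at 100 ng, with 24.4%, 24.8% and 24.9% and with 12.5%, 13.6% and 13.9% at 5, 10 and 20 ng. In set, a histone chaperone and phosphatase inhibitor (chromosome 8, position 4282657, plus strand), 25725 reads gave 19.6%, and the lower inputs 19.1%, 19.5% and 19.8%. The histone H3.3 gene h3f3b had one weak site (chromosome 9, position 22484324, plus strand, 13.5% on 24404 reads), and the other gene of this symbol, on chromosome 10, is the one just above 30%. As histone H3.3 is encoded by more than one near-identical gene, these levels are uncertain.

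Genes of mRNA storage, translation control and decay had weak sites in 10 of 47 (21.3%), 15 sites in all. In zar1l, an oocyte RNA-binding factor (chromosome 2, position 150251934, plus strand), 17577 reads gave 16.1%, and 5, 10 and 20 ng gave 15.5%, 17.7% and 16.1%. In caprin1, a stress granule protein (chromosome 4, position 7292564, plus strand), the level was 20.0%, with 18.6%, 19.4% and 19.7%. The AU-rich element binding genes zfp36l2.2 (11.0% on 24958 reads) and zfp36l2.1 (12.9% on 11652 reads), on chromosome 4, were listed at every lower input between 11.1% and 13.3%. They are close copies whose reads could be split. Ribosomal protein and translation factor genes had weak sites in 8 of 30 (26.7%), among them eif4g2 with 4. Position 169678 of eif4g2 had 26280 reads and 10.6%, with 10.2%, 11.7% and 10.0% at the lower inputs, and position 176608 had 16.5% with 15.3%, 14.8% and 15.6%. The site of eif4h, an initiation factor, had 15.8% with 16.8%, 14.5% and 14.9%.

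Nuclear import, lamina and pore genes had weak sites in 6 of 33 (18.2%), and maternal transcription and signalling factors also in 6 of 33 (18.2%). In rcc1, the exchange factor of Ran (chromosome 2, position 52867692, minus strand), the level was 13.2% on 16571 reads, with 13.6%, 13.4% and 13.2%. In kpna2, an importin alpha, it was 16.3%, with 14.6%, 14.0% and 17.7%. The lamin gene lmnb1, which the cytoskeleton list also holds, had 11.1% and 12.2% at its sites. In ctnnb1, the Wnt effector beta-catenin (chromosome 6, position 70832748, minus strand), 8599 reads gave 25.4%, with 24.5%, 25.9% and 26.4%. In pou5f3.3 (chromosome 8, minus strand) the sites at positions 508647 and 506556 had 17.0% and 14.4%, with 16.5%, 14.997% and 16.1% and with 14.96%, 13.4% and 12.5%. In foxh1, a Nodal pathway transcription factor, the level was 19.7%, with 16.3%, 16.1% and 18.9%.

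The remaining lists had smaller shares of genes with weak sites, though none of these differences was tested. The shares were 5 of 31 (16.1%) for ubiquitin, proteasome and chaperone genes, 4 of 29 (13.8%) for cytoskeleton and motors, 2 of 21 (9.52%) for germ plasm and localized determinants and 3 of 37 (8.11%) for metabolism. Among the first were ube2c, hsp90ab1, a heat shock chaperone (18.2% on 17827 reads, with 19.0%, 17.6% and 17.9%), ube2s, a partner of ube2c (10.1%, with 11.5%, 11.7% and 10.4%), and the polyubiquitin gene ubc. The repeats within ubc and its likeness to other ubiquitin genes make its level (20.8%) uncertain. In flna, the actin crosslinker filamin A, the level was 20.0%, with 19.1%, 19.1% and 18.5%. The germ plasm list had plin2, a lipid droplet protein (10.8%, listed at 5 ng only, at 10.2%), and trim36, a ubiquitin ligase of cortical rotation in Xenopus (10.3%, not listed at 5 ng, 10.1% and 10.2% at 10 and 20 ng). Neither was in every lower list. Besides odc1, the metabolic genes were mat2a, which makes S-adenosylmethionine, the methyl donor (11.4% at both of its weak sites at 100 ng, with 11.2%, 11.5% and 11.6% at position 108627540), and impdh2, of guanine nucleotide synthesis (15.3%). None of the 5 m5C writer and reader genes with a listed site had a site of 2000 reads.

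**Figure D5:**
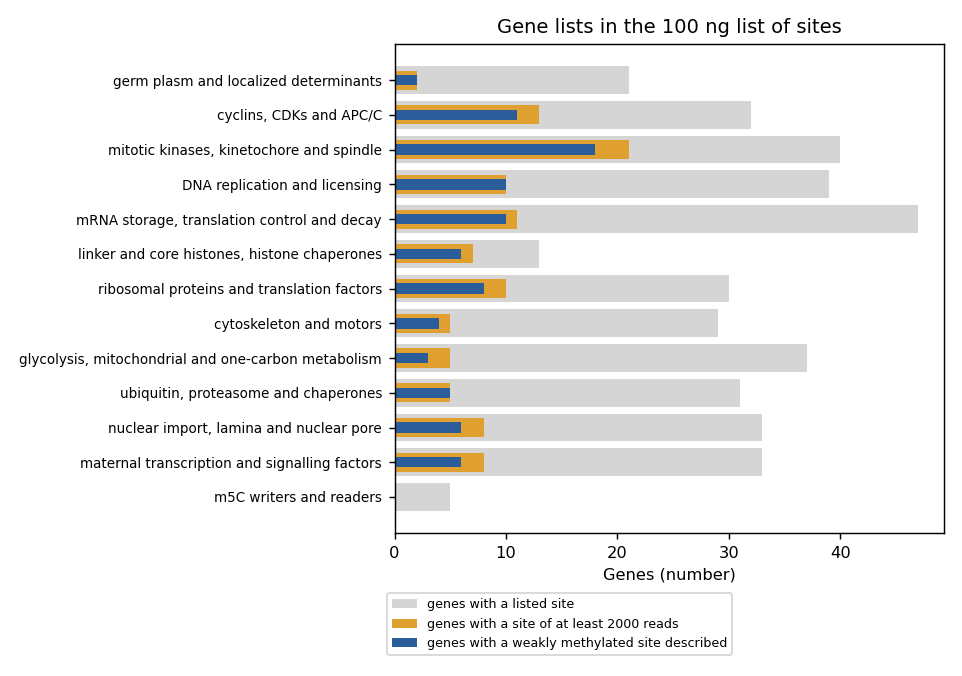
Number of genes (horizontal axis) of each of 13 hand-written lists that had any listed site at 100 ng (grey), a site of at least 2000 reads (orange) and one of the weakly methylated sites described (blue). Of the genes that reached 2000 reads, 486 of 631 over all symbols and 87 of 103 over the lists together had a weak site. Shares included 18 of 21 for mitotic genes, 11 of 13 for cyclins and APC/C, and 10 of 10 for replication. They were 6 of 8 for nuclear import, 6 of 8 for maternal factors and 3 of 5 for metabolism. For ubiquitin, proteasome and chaperones they were 5 of 5, for cytoskeleton and motors 4 of 5 and for germ plasm 2 of 2. No share was tested. Of the m5C writer and reader genes, the 5 with a listed site had none of 2000 reads.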

How the data were processed

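RNA BS-seq of polyadenylated RNA was analysed in 5 libraries of stage 0 X. tropicalis embryos (2 of 100 ng, 1 each of 5, 10 and 20 ng by label). By the methods of the study, cutadapt and Trimmomatic were used for trimming, HISAT2 (version 2.10 per the submitters' processing notes) for mapping to the converted genome and Bowtie2 for reads left over, against converted transcripts, with the Xenbase X. tropicalis v9.1 assembly. Reads with many remaining cytosines and conversion-resistant genes were removed, which can lower levels in dense clusters. For each site the authors deposited the count of C and T reads as its coverage, the unconverted fraction as its m5C level, printed here as a percentage, and the p-value with which it was called, which was at most 0.000892 and not used further. The 100 ng list held 18524 sites with a median coverage of 183 reads, against 13153, 12341 and 13178 sites and medians of 80, 80 and 83 reads at 5, 10 and 20 ng. Coverage sums over listed sites were 12230062, 2593882, 2525470 and 2967226 reads at 100, 5, 10 and 20 ng.

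Unconverted reads were level times coverage, whole to within 2.6e-05. Chromosome, position and strand identified a site across lists. Intervals of levels and shares are exact Clopper-Pearson intervals at 95%, and those of median differences were taken from the ranks of the values. Fisher's exact tests (SciPy 1.17.1, Python 3.11.15, pandas 2.3.3) were Benjamini-Hochberg adjusted per pair of lists over all sites with at least 50 reads in both. They were tried on simulated data with read counting error only. The lists differed by more than that, as given above, so the simulation does not show how the tests behave on them. Alternatives were other limits of coverage, level, sites per gene and reads, read-weighted levels and a test with enlarged variance. Of the 486 symbols, 457 (94.0%) were in the reference gene table, used for names only, and 2 symbols were dates made by a spreadsheet. The bases 3′ of a site were read in RNA direction, since all 249 table rows classed under the CTCNA motif then carry its letters. The members and lists were chosen with earlier results of these data known. Named sites were the 10 of highest coverage, the 10 of lowest level, the 5 genes with most sites, the 5 widest and 5 narrowest ranges over the lower lists, any site that differed between lower lists, the 5 of highest coverage in no lower list, the 3 nearest each limit on either side, up to 4 sites per gene list by coverage, and the 3 highest and 3 lowest coverage ratios. Sites named for their sequence followed their own choice, given there, and neighbouring pairs and the remaining weak sites of dnmt1 and mcm7 were chosen after their values were seen. One site that this rule names is not reported here.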

Additional observations from a re-analysis of the deposited data

How the results depend on the processing

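The number of sites was 1542 with at least 1000 reads, 319 with at least 4000 reads and 466 in genes with fewer than 5 sites, in place of 737. Of these, 1368, 1394 and 1398 were listed at 5, 10 and 20 ng for the first, 293, 305 and 303 for the second and 426, 432 and 429 for the third, by construction of the larger or smaller sets. With level limits of 20% and 40%, or no limit on sites per gene, 539, 842 and 841 sites were found. Median levels at 5, 10 and 20 ng were 19.4%, 19.5% and 19.3% over sites of at least 15%, and read-weighted levels were 17.2%, 17.3% and 17.3%. Over sites in all 3 lists the median level was 16.5% at 10 ng and 16.8% at 20 ng. The median difference from 100 ng was -0.445 points at 5 ng and -0.301 points at 20 ng over sites of at least 15%, and -0.165 points with the lower inputs summed. The sign of the difference was the same under every alternative run, but the alternatives reuse the same sites. The intervals of the main median differences at 10 and 20 ng held values of either sign, as given above. No described site passed the adjusted test in any pair of lower inputs with 20 or 100 reads as minimum, with enlarged variance or with adjustment over the 3 pairs together.

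With 1 library per lower input and the 2 libraries of 100 ng deposited as 1 list, leave-one-out results were not run, and read depth limits single sites. No paired analysis was possible because only the 100 ng group has more than 1 library, and these share 1 set of values.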
